A study of Mus musculus with 86 samples.

Results

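Hes1, Hes5, Hey1 and Hey2 encode basic helix-loop-helix repressors that many cells switch on when Notch is active. The members are all probes that carry these 4 gene symbols in the platform annotation, each taken separately. They come to 7 probes of 4 genes, among 20794 probes and 9030 gene symbols. Hes1 had 1 probe (number 8112), Hes5 had 1 (22), Hey1 had 3 (24, 20309 and 20587) and Hey2 had 2 (25 and 20310). None of the 7 probes passed an adjusted p of 0.05 in any comparison of genotype, strain or organ.

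Dll1 is a ligand that sits on one cell and binds a Notch receptor on the next. The bound receptor is cut, and its intracellular part enters the nucleus, joins the DNA-binding protein RBPJ and switches on target genes, of which the Hes and Hey genes are the best known. Hes proteins recruit corepressors of the Groucho (Tle) family. Hes and Hey proteins keep other genes off, among them proneural genes. Hes1 is known from bile duct and thymocyte development, Hes5 from neural progenitors, and Hey1 and Hey2 from arteries and heart.

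Male mice heterozygous for the Dll1 tm1Gos allele, in which lacZ disrupts the coding sequence of the gene, were set against wild-type mice of the same strain. The C3H mice were 15 weeks old, and their allele had been outcrossed to that background for 11 generations. Liver, thymus and brain of C3H had 10 arrays each and spleen had 9, from 5 heterozygous mice, against an RNA pool of 5 wild-type mice. The 129SvJ/Iso mice were 16 weeks old, with 12 liver arrays of 4 heterozygous mice, 15 spleen arrays of 5 and 14 brain arrays of 4, against pools of 4 wild-type mice by the sample labels, although the protocol text speaks of a larger pool. In 129SvJ/Iso thymus, 6 technical arrays held 1 heterozygous pool of 4 mice against 1 wild-type pool. Organs were whole, so a lower ratio can mean fewer cells of a type or less RNA per cell, and these cannot be told apart. The wild-type pool is 1 control sample per strain and organ, so the spread between wild-type mice is left out of every test, and all ratios of an organ share that pool.

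Every value is a log2 ratio, read as heterozygous over wild type. The labels do not name the numerator, so that direction is likely but not settled, and a sign error would turn every value round. In C3H spleen and 129SvJ/Iso brain it is also unsettled whether the arrays of both dye orientations run the same way. Between the orientations of a mouse, Spearman's rho over probes had a median of −0.039 in C3H spleen and −0.16 in 129SvJ/Iso brain. It was −0.011 in 129SvJ/Iso spleen and 0.022 in C3H brain, so these groups are hardly better settled. In the other tested groups the medians lay between 0.061 and 0.16. Values are means ± SD over mice. A mouse entered a mean only where each dye orientation in which its RNA was hybridised gave a usable value, and readings in 1 dye alone were left out. A ratio gives no level, so genes were not ranked by level, and the labelled organs could not be checked against the level of their markers.

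Between 3.06% and 27% of values per group were not usable, least in C3H liver and most in 129SvJ/Iso spleen. Mice of the C3H line spread less than those of 129SvJ/Iso, with a probe's median SD between 0.234 (brain) and 0.461 (spleen) in C3H and between 0.499 (brain) and 0.711 (spleen) in 129SvJ/Iso. Dll1 itself had 2 probes. Probe 5 averaged −0.46 ± 0.20 in C3H thymus and −0.18 ± 0.096 in C3H brain, below 0 in 5 of 5 mice each, 0.15 ± 0.43 in C3H liver, and 0.34 in 129SvJ/Iso brain, with 0 of 3 mice below 0. Probe 20289 averaged −0.81 ± 0.56 in C3H liver (n = 4 mice), −0.10 ± 0.25 in C3H thymus and −0.018 in C3H brain, below 0 in 3 of 5 mice in each of the last 2 organs. The window of 100 probe numbers that holds it had a median of −0.31 in C3H liver. Whether either probe reads the disrupted part of the transcript is not known here.

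RBPJ binds DNA around the letters TGGGAA. The promoters of Hes5 and Hey2 are shown because only these members matched the promoter table, with each TGGGAA or its complement TTCCCA in capitals. The sequences are the 250 bases before the start used by RefSeq on GRCm38.p6, chr4:154960673-154960922 (plus strand) for Hes5 and chr10:30842784-30843033 (minus strand) for Hey2. Of the 4 members, 2 matched the promoter table, and Hes1 and Hey1 are named only.
Hes5: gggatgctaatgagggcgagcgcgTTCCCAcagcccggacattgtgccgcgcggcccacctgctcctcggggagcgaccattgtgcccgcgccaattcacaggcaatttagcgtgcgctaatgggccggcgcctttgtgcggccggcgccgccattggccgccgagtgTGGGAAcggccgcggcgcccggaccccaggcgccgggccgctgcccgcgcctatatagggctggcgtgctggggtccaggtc
Hey2: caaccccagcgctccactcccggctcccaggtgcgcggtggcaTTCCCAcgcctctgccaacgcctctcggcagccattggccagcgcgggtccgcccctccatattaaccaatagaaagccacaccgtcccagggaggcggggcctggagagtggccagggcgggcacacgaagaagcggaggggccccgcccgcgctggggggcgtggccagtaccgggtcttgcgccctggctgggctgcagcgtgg
Hes5 held TGGGAA starting 82 bases before the start and TTCCCA starting 226 bases before it, so the letters occur once on each strand. Hey2 held TTCCCA starting 207 bases before the start. Of 32851 mouse promoter windows of this length, 21.6% held the letters on either strand and 1.28% on both. The letters are a match only and do not show that RBPJ binds there. In the same build Hes1 lies on chromosome 16 (30065357 to 30067796), Hes5 on chromosome 4 (154960626 to 154962372), Hey1 on chromosome 3 (8663359 to 8667038) and Hey2 on chromosome 10 (30832359 to 30842783). The Hes5 window lies inside the annotated span of the gene, which reaches further upstream than the start used.

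**Figure D1:**
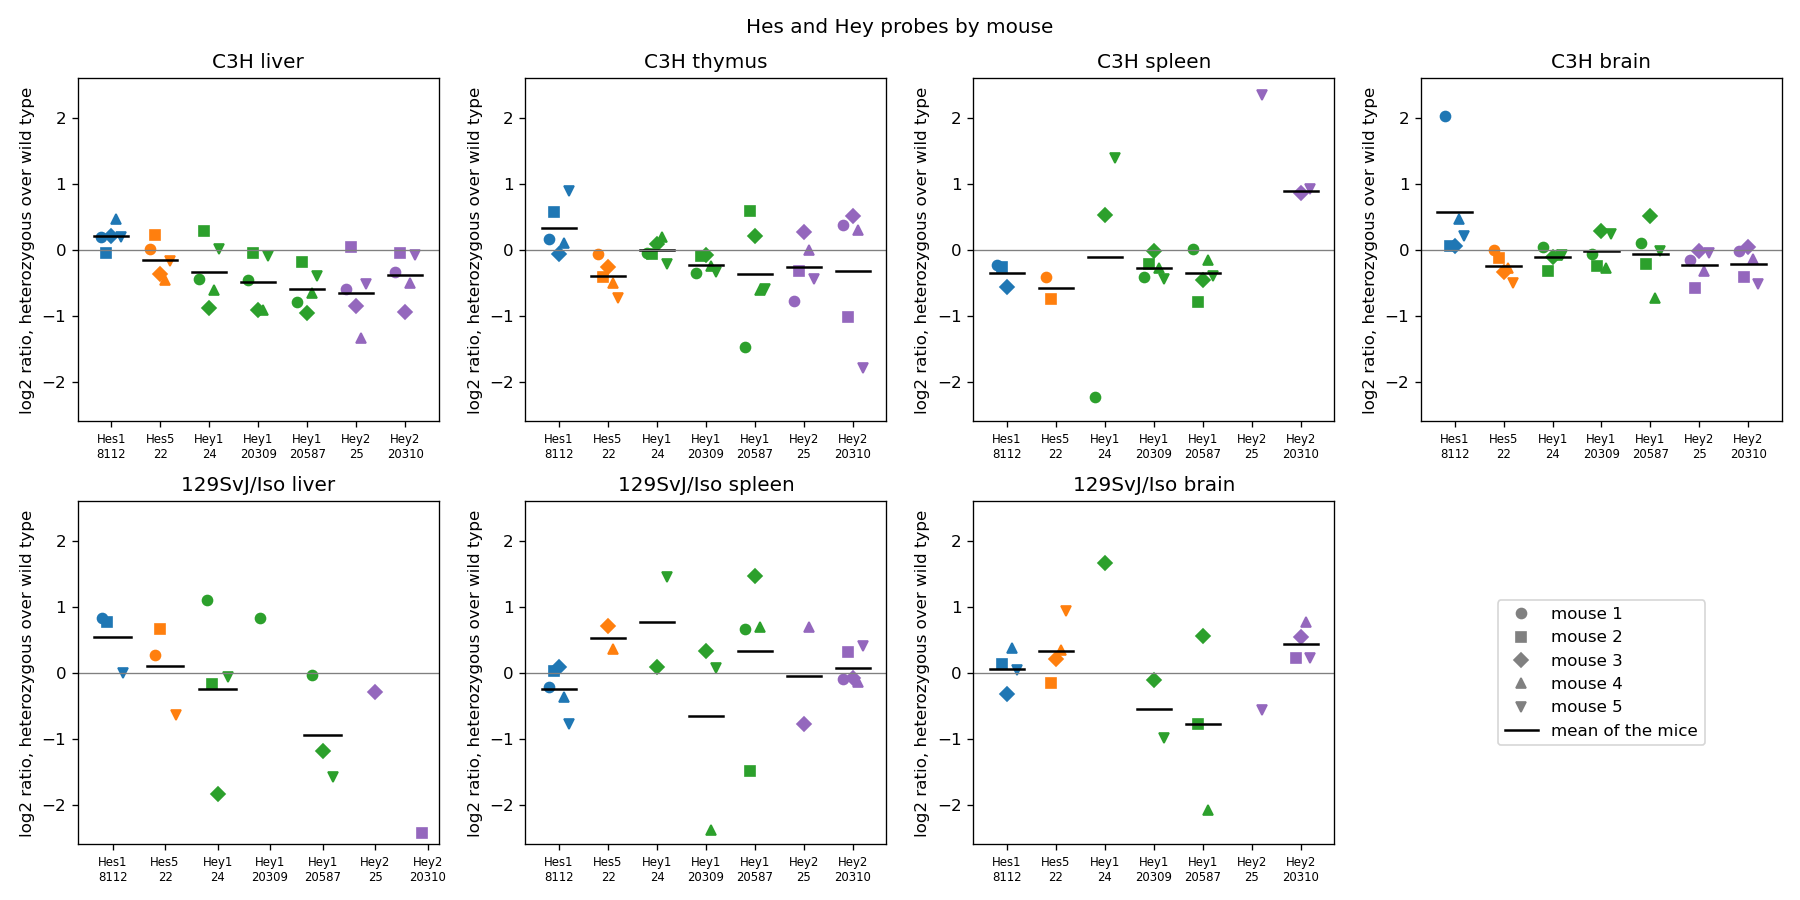
Log2 ratio of heterozygous over wild-type RNA (vertical axis) for the 7 Hes and Hey probes (horizontal axis, gene over probe number) in 7 groups. Each marker is 1 mouse, the marker shape gives its number, and the bar is the mean where over 1 mouse had a value. In C3H liver, Hey1 probes 20309 and 20587 and Hey2 probe 20310 lie below 0 in 5 of 5 mice, and Hes1 in C3H brain has 1 mouse at 2.04.

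All 5 Hey probes had a mean below 0 in C3H liver, and so they had in C3H thymus and brain. Hey1 and Hey2 are close relatives that can pair with each other and with Hes1. Hey1 probe 20587 had −0.79, −0.18, −0.95, −0.65 and −0.40 in mice 1 to 5, with a mean of −0.59 ± 0.31. Hey1 probe 20309 had −0.45, −0.052, −0.92, −0.92 and −0.093, with a mean of −0.49 ± 0.42. Mice 3 and 4 were low and mouse 2 was nearest to 0 on both probes, though mouse 1 lay below mouse 4 on probe 20587. Hey1 probe 24 had −0.44, 0.28, −0.89, −0.61 and 0.014, with a mean of −0.33 ± 0.47.

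Hey2 was low in the same mice 3 and 4. Its probe 25 had −0.60, 0.038, −0.85, −1.34 and −0.52 in mice 1 to 5 of C3H liver, with a mean of −0.65 ± 0.50. Its probe 20310 had −0.33, −0.041, −0.95, −0.50 and −0.082, with a mean of −0.38 ± 0.37. Mouse 2 was again the one nearest to 0.

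In limma, 4 of these 5 probes were lower at an unadjusted p of 0.05 (all but Hey1 probe 24), and each of the 4 had an adjusted p of 0.36. The background in C3H liver was 7.66% of 20335 probes lower at that unadjusted threshold, and 0% passed the adjusted one. In 5 of 5 mice, 3 of the 5 probes lay below 0, against 6.24% of the probes with a value in every mouse. The 95% interval reached from −0.90 to −0.29 for probe 20587 and from −1.11 to −0.20 for Hey2 probe 25.

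Probes with a similar platform number also mostly lay below 0 there. Hey1 probe 20309 and Hey2 probe 20310 carry adjoining numbers, and so do Hey1 probe 24 and Hey2 probe 25. Other Notch pathway probes lie close by, such as Dll1 probe 5, Hes2 probe 20 and Jag2 probe 27, and Dlk1 probe 20288 and Dll1 probe 20289. The neighbours thus hold some pathway and member probes and are not a background free of the pathway. Of the 88 tested probes numbered within 50 of probe 20309, 81 had a mean below 0 in C3H liver, and their median was −0.50. Around probe 20587 it was 85 of 96 with a median of −0.48, and around Hey2 probe 25 it was 50 of 73 with a median of −0.20. Over all 20335 probes tested in C3H liver the median was 0.034 and 43.4% lay below 0.

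**Figure D2:**
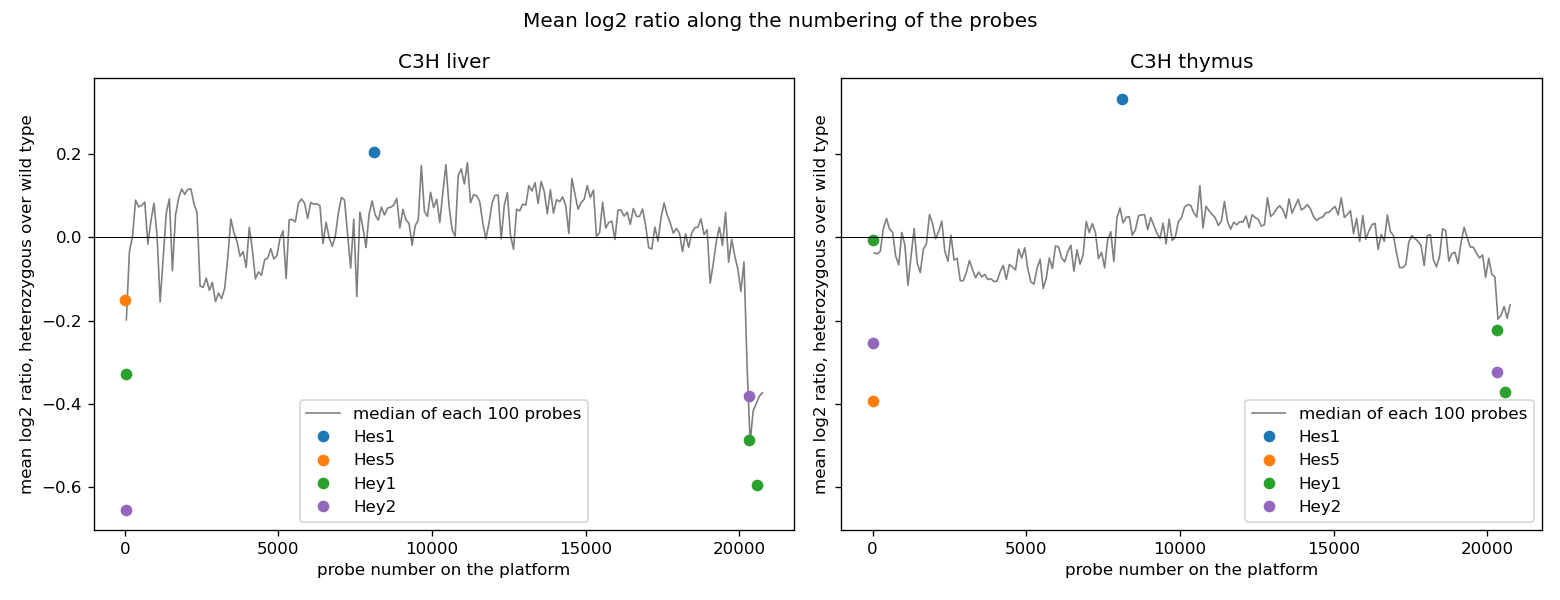
Mean log2 ratio (vertical axis) against probe number (horizontal axis) in C3H liver and C3H thymus. The grey line is the median of each 100 consecutive probe numbers and the points are Hes and Hey probes. The line drops at the right end, where the last 5 windows lie between −0.49 and −0.37 in liver and between −0.20 and −0.16 in thymus.

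The drop belonged to the end of the numbering. In C3H liver the last 5 windows of 100 numbers, from probe 20301 on, had medians between −0.49 and −0.37, while the other windows lay between −0.31 and 0.18. In C3H thymus the last 5 lay between −0.20 and −0.16 and the others between −0.12 and 0.12. In C3H spleen and brain the last 5 windows reached from −0.0057 to 0.17 and from −0.14 to −0.063. What sets the probes of this stretch apart was not tested.

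Mouse by mouse, the neighbours tracked the Hey probes of the end stretch in C3H liver. The neighbour medians of Hey1 probe 20309 were −0.37, 0.021, −0.92, −0.80 and −0.29 in mice 1 to 5. Those of Hey1 probe 20587 were −0.38, 0.054, −0.85, −0.69 and −0.27. Both sets had mice 3 and 4 lowest and mouse 2 near 0, as Hey1 probe 20309 had. On Hey1 probe 20587 mouse 1 (−0.79) lay below mouse 4 (−0.65), which its neighbours did not share. After the neighbour median of each array was taken off, Hey1 probe 20309 averaged −0.014 ± 0.14 (adjusted p = 0.952), Hey1 probe 20587 −0.19 ± 0.16 (adjusted p = 0.464) and Hey2 probe 20310 0.095 ± 0.13 (adjusted p = 0.618). None of the 3 was then past the unadjusted threshold.

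Hey2 probe 25 stayed past the unadjusted threshold. With its neighbours taken off it had −0.39, 0.014, −0.55, −1.08 and −0.46 in mice 1 to 5. Its mean was then −0.50 ± 0.39, with an adjusted p of 0.438 in limma. The share of all probes past the unadjusted threshold after this step is not given for any organ. Hey1 probe 24, from the same stretch, averaged −0.17 ± 0.33. The neighbour medians there were smaller, between −0.37 in mouse 4 and 0.025 in mouse 2.

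**Figure D3:**
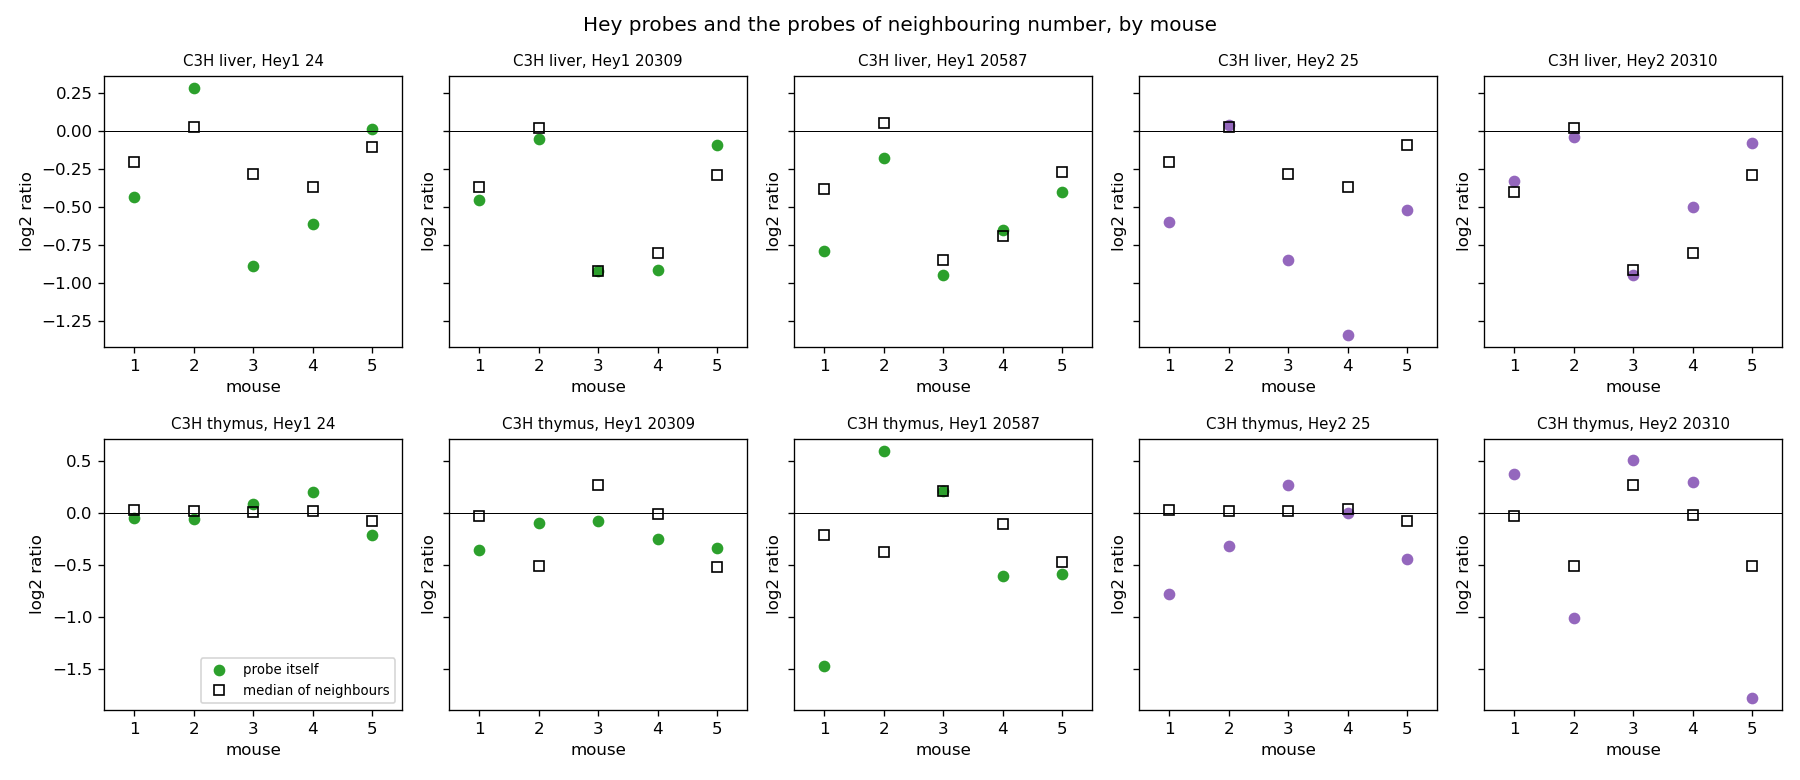
Log2 ratio (vertical axis) of 5 Hey probes (filled circles) and the median of the probes numbered within 50 of each (open squares), for mice 1 to 5 (horizontal axis) in C3H liver (upper row) and C3H thymus (lower row). In liver the circles and squares of probes 20309 and 20310 lie close together, and the circles of Hey2 probe 25 lie below the squares in mice 1, 3, 4 and 5.

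Markers of the main liver cell lay below 0 in C3H liver as well. All 8 hepatocyte marker probes had a mean below 0 and 4 of them were lower at the unadjusted threshold, among them Arg1, a urea cycle enzyme, on probe 1957 at −0.64 ± 0.34. Their mean per mouse reached from −0.86 in mouse 3 to 0.14 in mouse 2, with a median of −0.40. Mouse 3 was thus low, and mouse 2 high, on these markers and on the Hey probes. Endothelial cells are a known site of Hey1 and Hey2, and 6 of 12 endothelial marker probes lay below 0, with a median of −0.0041. At the unadjusted threshold 2 were lower and 1 higher. Pecam1, an adhesion protein of endothelium, averaged −0.34 ± 0.34 on probe 20671 of the end stretch. Cdh5, the adhesion protein of endothelial junctions, averaged −0.37 ± 0.34 and Vwf 0.37 ± 0.31 (n = 4 mice). Endothelial means per mouse reached from −0.31 in mouse 3 to 0.12 in mouse 1. Biliary markers had 2 of 6 probes below 0. Red cell markers had 7 of 7 probes, of 2 genes, below 0 with a median of −0.32, and 2 probes were lower at the unadjusted threshold. Their mean per mouse reached from −0.66 in mouse 3 to 0.13 in mouse 5. The part of cell composition in the Hey ratios was not tested.

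Most Hey probes read differently in the 2 dye orientations. In C3H liver, Hey1 probe 24 averaged −0.83 on the 5 arrays with heterozygous RNA in Cy3 and 0.17 on the 5 in Cy5. Probe 20309 averaged −0.83 in Cy3 and −0.15 in Cy5, probe 20587 −0.92 and −0.27, and Hey2 probe 25 −0.95 and −0.35. All 4 probes were below 0 on 5 of 5 Cy3 arrays and on 2, 2, 3 and 4 of 5 Cy5 arrays. Hey2 probe 20310 was nearly even, at −0.42 in Cy3 and −0.34 in Cy5. Over all probes the Cy5 minus Cy3 difference in C3H liver had quartiles of −0.22 and 0.21, and the 4 probes lay between 0.60 and 0.99.

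**Figure D4:**
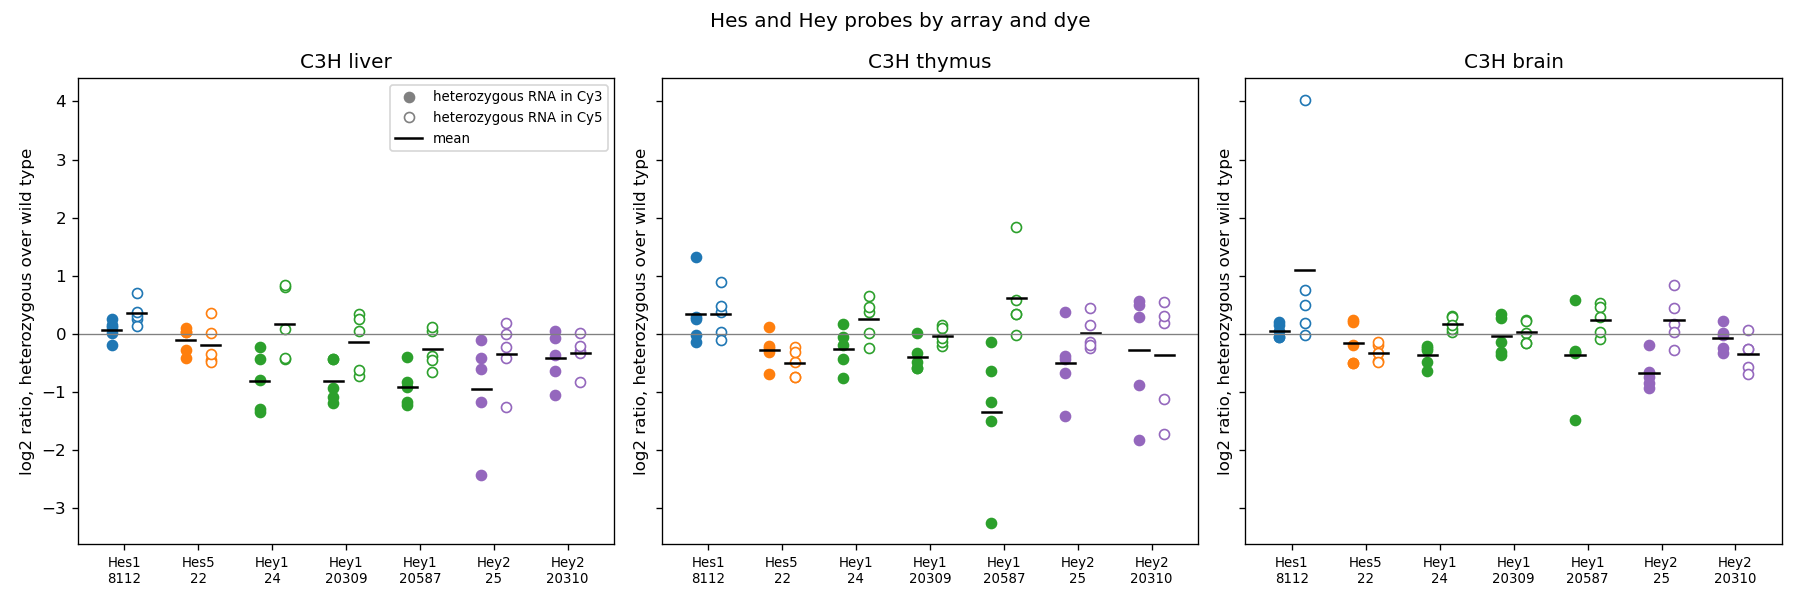
Log2 ratio on each array (vertical axis) for the 7 Hes and Hey probes (horizontal axis) in C3H liver, thymus and brain. Filled circles are arrays with heterozygous RNA in Cy3, open circles those in Cy5, and bars are means. Hey1 probe 20587 in thymus averages −1.35 in Cy3 and 0.61 in Cy5, while Hes5 lies mostly below 0 in both dyes in thymus and brain.

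Among the members in C3H liver, thymus and brain, the split was widest for Hey1 probe 20587 in thymus, at −1.35 in Cy3 and 0.61 in Cy5. Its mice had −1.47, 0.59, 0.22, −0.60 and −0.59, with a mean of −0.37 ± 0.80, and 3 of 5 lay below 0. Hey1 probe 20309 was tighter in thymus, with −0.35, −0.097, −0.074, −0.25 and −0.34, all 5 below 0. Its mean was −0.22 ± 0.13, past the unadjusted threshold with an adjusted p of 0.61 in limma. Its neighbours had a median of −0.20 there, and with them taken off it averaged −0.056 ± 0.38. Hey1 probe 24 averaged −0.0074 ± 0.16.

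Hey2 did not hold together in C3H thymus. Probe 20310 had 0.37, −1.01, 0.52, 0.30 and −1.78 in mice 1 to 5, so mice 2 and 5 were low and the other 3 lay above 0. Both dyes gave that pattern, since mouse 5 had −1.84 in Cy3 and −1.73 in Cy5. The neighbour medians were −0.029, −0.51, 0.27, −0.023 and −0.51, low in the same mice 2 and 5 but smaller in size. The mean was −0.32 ± 1.02 (adjusted p = 0.797), and it was 0.044 without mouse 5. Hey2 probe 25 had −0.78, −0.31, 0.27, 0.0025 and −0.44, with a mean of −0.25 ± 0.40.

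Hes5 lay below 0 on average in C3H thymus and brain. Its spread between mice was close to a probe's median SD there, 0.259 in thymus and 0.234 in brain. In thymus it had −0.063, −0.41, −0.27, −0.50 and −0.73 in mice 1 to 5, a mean of −0.39 ± 0.25 and a 95% interval from −0.66 to −0.12. All 5 mice lay below 0, which 6.9% of the probes with a value in every mouse did. It lay below 0 on 9 of 10 arrays, and the adjusted p was 0.563. In thymus 5.31% of 20003 probes were lower at the unadjusted threshold, among them Hes5 and Hey1 probe 20309 of the 7 members, and 0% passed the adjusted one. The neighbours of Hes5 had a median of −0.0044. With them taken off it averaged −0.40 ± 0.22, below 0 in 5 of 5 mice. That was past the unadjusted threshold, with no share of all probes given after this step. T cells make up most of the thymus, and 6 of 7 T cell marker probes lay below 0, with means per mouse from −0.44 in mouse 2 to −0.048 in mouse 3. Their part in the Hes5 ratio was not tested.

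In C3H brain Hes5 had 0.0015, −0.12, −0.33, −0.27 and −0.50 in mice 1 to 5, with a mean of −0.24 ± 0.19. Its 95% interval reached from −0.46 to −0.022 and the adjusted p was 0.565. In brain 5.03% of 20201 probes were lower at the unadjusted threshold, Hes5 alone among the 7 members, and 0% passed the adjusted one. Less its neighbours, Hes5 averaged −0.26 ± 0.20, past the unadjusted threshold, again with no share of all probes given after this step. Mouse 5 was the lowest in both organs and mouse 1 was the highest. In C3H liver Hes5 had 0.017, 0.22, −0.37, −0.46 and −0.16, on both sides of 0, with a mean of −0.15 ± 0.28. Its neighbours there had a median of −0.21, and with them taken off it averaged 0.026 ± 0.20. Astrocytes and neural progenitors carry Hes5 in the brain, and the 8 astrocyte marker probes had a median of −0.017 with 6 below 0. Red cell markers had 7 of 7 probes, of 2 genes, below 0 in C3H brain, with a median of −0.44 and 5 lower at the unadjusted threshold. Neuron markers had 5 of 6 below 0 and 2 lower, both of Camk2a, a kinase of neuronal synapses, at −0.72 ± 0.28 (probe 3714) and −0.68 ± 0.60 (probe 18100, n = 4). Their part in the Hes5 ratio was not tested.

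None of the Hey probes passed the unadjusted threshold in C3H brain. Hey2 probe 25 had −0.16, −0.57, −0.023, −0.32 and −0.051, below 0 in 5 of 5 mice, where 6.72% of probes did the same, with a mean of −0.22 ± 0.23. Hey2 probe 20310 averaged −0.21 ± 0.25, below 0 in 4 of 5 mice. The 3 Hey1 probes averaged −0.11 ± 0.13, −0.012 ± 0.26 and −0.067 ± 0.46 (probes 24, 20309 and 20587). Hey2 probe 25 split by dye in brain too, at −0.68 in Cy3 and 0.23 in Cy5.

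Hes1 ran the other way in 3 of the 4 C3H organs. It had 0.20, −0.041, 0.21, 0.47 and 0.19 in mice 1 to 5 of liver, with a mean of 0.21 ± 0.18 and 9 of 10 arrays above 0. In thymus it had 0.16, 0.57, −0.068, 0.11 and 0.90, with a mean of 0.33 ± 0.39 and 7 of 10 arrays above 0. In both organs 4 of 5 mice lay above 0. The adjusted p was 0.367 in liver and 0.618 in thymus, and neither value passed the unadjusted threshold. The neighbours of Hes1 had a median of 0.10 in liver and 0.065 in thymus. With them taken off, Hes1 averaged 0.13 ± 0.15 in liver and 0.28 ± 0.28 in thymus.

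In C3H brain Hes1 had 2.04, 0.059, 0.063, 0.47 and 0.22, above 0 in all 5 mice, against 5.18% of probes with a value in every mouse. Mouse 1 stood apart through its Cy5 array at 4.03, while its Cy3 array read 0.039. The mean was 0.57 ± 0.84 with mouse 1 and 0.20 without it (adjusted p = 0.593 with it). Neighbours of Hes1 had a median of 0.052 in brain.

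In C3H spleen Hes1 lay below 0, at −0.22, −0.25 and −0.57 in mice 1, 2 and 3. Mouse 1 had 1 array in this organ, in Cy3. Mice 4 and 5 had a Cy3 value alone (−0.10 and −0.48) and were left out of the mean. All 7 arrays with a value lay below 0, and the mean was −0.35 ± 0.19 (n = 3, adjusted p = 0.796). With the sign turned on the Cy5 arrays the mean was −0.16. Hey1 probe 20309 had −0.42, −0.21, −0.020, −0.28 and −0.44, below 0 in 5 of 5 mice, where 5.56% of probes did so, with a mean of −0.27 ± 0.17. Turning the sign on the Cy5 arrays gave −0.31. Taking off its neighbours gave −0.52 ± 0.18, past the unadjusted threshold (adjusted p = 0.798), with no share of all probes given after this step. Hey1 probe 20587 averaged −0.36 ± 0.31, and 0.008 with the sign turned. Hey1 probe 24 spread from −2.23 to 1.39 over 3 mice.

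Hey2 probe 20310 had values in both dyes in 2 C3H spleens, with means of 0.87 and 0.93. Its arrays split by dye, with the 4 in Cy3 at 1.80, 2.57, 1.09 and 2.81 and the 2 in Cy5 at −0.84 and −0.96. Hey2 probe 25 had both dyes in mouse 5, at 4.05 in Cy3 and 0.645 in Cy5, a mean of 2.35. It read 4.71 in Cy3 in mouse 3, and −2.36 and −2.84 in Cy5 in mice 2 and 4. Both Hey2 probes were thus above 0 on every Cy3 array and below 0 on all Cy5 arrays but 1. Hes5 had −0.41 in mouse 1, on its Cy3 array, and −0.75 in mouse 2, the mean of −1.91 in Cy3 and 0.41 in Cy5. Single readings outside the mean were 1.55 and −0.44 in Cy3 (mice 3 and 4) and −0.22 in Cy5 (mouse 5). Hes5 and Hey2 had too few mice to be tested here. In C3H spleen 0% of 18546 probes passed the adjusted threshold and 5.95% the unadjusted one in either direction, none of the 4 tested member probes among them.

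In 129SvJ/Iso the mice spread more widely and fewer probes could be read. Hes1 had 0.84, 0.78 and −0.0015 in liver (mice 1, 2 and 5), with a mean of 0.54 ± 0.47. Hey1 probe 20587 had −0.036, −1.18 and −1.58 in liver (mice 1, 3 and 5), with a mean of −0.94 ± 0.80 and an adjusted p of 0.364. Its neighbours had a median of −0.32 and lay below 0 for 50 of 70. With extreme values kept, the mean of this probe was 0.50 (adjusted p = 0.802), on the other side of 0. Hes5 averaged 0.10 ± 0.67 (n = 3) and Hey1 probe 24 −0.24 ± 1.21 (n = 4). In limma 0% of 13462 probes passed the adjusted threshold in 129SvJ/Iso liver and 14.1% the unadjusted one, again with none of the 4 tested members.

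The hepatocyte markers were low in this group as well. All 6 tested probes lay below 0, with a median of −0.81. Red cell marker probes, of Hba-a1 and Alas2, lay below 0 for 7 of 7 with a median of −1.19. Their part in the member ratios was not tested.

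In 129SvJ/Iso spleen Hes1 had −0.22, 0.028, 0.086, −0.36 and −0.78 in mice 1 to 5, with a mean of −0.25 ± 0.35. Hey2 probe 20310 was read in all 5 mice and stayed near 0, at 0.082 ± 0.26. Hey1 probe 20587 averaged 0.34 ± 1.27 (n = 4) and probe 20309 −0.65 ± 1.5 (n = 3), where 1 mouse had −2.38. Hes5 had 0.71 and 0.36 in 2 mice, and −1.295 in Cy3 alone in mouse 2, which was left out. The background was 0% of 15630 probes at the adjusted threshold and 4.78% at the unadjusted one, with none of the 4 tested member probes.

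In 129SvJ/Iso brain Hey2 probe 20310 lay above 0 in 4 of 4 mice, at 0.23, 0.54, 0.77 and 0.23 in mice 2 to 5, with a mean of 0.44 ± 0.26 (adjusted p = 0.793). It averaged 0.86 on 7 Cy5 arrays and −0.063 on 7 Cy3 arrays, and with the sign turned on the Cy5 arrays the mean was −0.42. Hes5 had −0.16, 0.21, 0.34 and 0.93, with a mean of 0.33 ± 0.45, and 0.87 with the sign turned. Hes1 averaged 0.057 ± 0.29, and −0.55 with the sign turned. The turned value passed the unadjusted threshold in limma (adjusted p = 0.201), with no share of all probes given for turned signs. Hey1 probe 20587 averaged −0.77 ± 1.32 (n = 3), and 0.24 turned. As read, 0% of 15914 probes passed the adjusted threshold and 5.32% the unadjusted one, with none of the 4 tested members.

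The 129SvJ/Iso thymus pools were technical arrays of 1 pair of pools and were not tested. Hes1 read −0.17, 4.68 and 2.09 on the 3 Cy3 arrays and 1.79, 1.48 and 0.34 on the 3 Cy5 arrays. It was above 0 on 5 of 6 arrays with a median of 1.63, and arrays of the same pools differed by several log2 units. Hey1 probe 24 was above 0 on 4 of 5 arrays with a median of 1.13. Hey2 probe 20310 was below 0 on 4 of 5, with a median of −0.80, and probe 25 read −1.07, 0.74, 0.79 and 1.81. Hes5 read 0.24, 0.45 and 1.63 on 3 arrays, Hey1 probe 20309 0.28, 0.46 and 2.99, and Hey1 probe 20587 −1.35, 2.67 and 2.72.

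**Figure D5:**
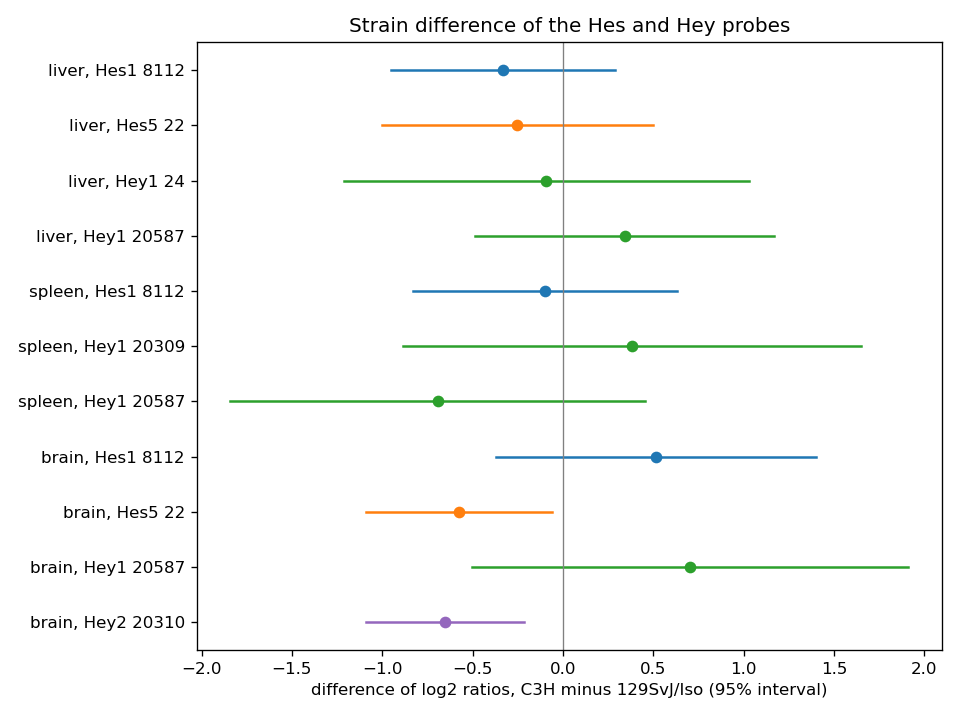
Difference of the mean log2 ratios, C3H minus 129SvJ/Iso (horizontal axis), for the 11 member probes and organs with at least 3 mice in each strain (rows). Points are differences and lines 95% intervals, from a fit with a spread shared by both strains. Hes5 and Hey2 probe 20310 in brain have intervals below 0, reaching up to −0.060 and −0.22.

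The difference between the strains was tested for 11 pairs of member probe and organ. The fit used a spread shared by both strains, although a probe's median SD in brain was 0.234 in C3H and 0.499 in 129SvJ/Iso. The intervals rest on that shared spread, and member intervals with the spread set by strain are not given. In brain Hes5 averaged −0.24 in C3H and 0.33 in 129SvJ/Iso, a difference of −0.57 with a 95% interval from −1.09 to −0.060 (adjusted p = 0.446). Hey2 probe 20310 averaged −0.21 in C3H brain and 0.44 in 129SvJ/Iso brain, a difference of −0.65 with an interval from −1.09 to −0.22 (adjusted p = 0.337). For Hes5 the C3H mice lay between −0.50 and 0.0015 and the 129SvJ/Iso mice between −0.16 and 0.93. For Hey2 probe 20310 the C3H mice lay between −0.52 and 0.037 and the 129SvJ/Iso mice between 0.23 and 0.77. The share of all probes whose mice do not overlap between the strains is not given, so these ranges are descriptions. These 2 of the 4 brain members were lower at the unadjusted threshold, where 4.92% of 15487 probes were, and 0% passed the adjusted one. Both rest on 129SvJ/Iso brain, where turned arrays gave 0.87 for Hes5 and −0.42 for Hey2 probe 20310.

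No member differed between the strains at the unadjusted threshold in liver or spleen. The Hes1 difference was −0.33 in liver, with an interval from −0.95 to 0.29, and −0.099 in spleen, from −0.83 to 0.63. Hey1 probe 20587 differed by 0.34 in liver (−0.49 to 1.17), by −0.69 in spleen (−1.84 to 0.46) and by 0.70 in brain (−0.50 to 1.91). With extreme values kept, the liver difference was −1.1, of the other sign. With the sign turned on Cy5 arrays, this probe averaged 0.008 in C3H spleen and 0.24 in 129SvJ/Iso brain, so the direction of its differences in spleen and brain is not settled. The intervals are wide, and none of them shows that the strains respond alike. In liver 0.288% of 13201 probes passed the adjusted threshold and 19.3% the unadjusted one. In spleen it was 0% and 7.03% of 14031 probes.

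The order of the organs was not the same for each gene in C3H. Hes1 ran from brain at 0.57 over thymus at 0.33 and liver at 0.21 to spleen at −0.35. Without mouse 1 brain was at 0.20 and no longer highest. Spleen rests on 3 mice, and its direction is unsettled. The moderated F over the 4 organs was 2.35 (adjusted p = 0.557), so no pair of neighbours in this order is shown to differ. Hey1 probe 20309 ran from brain at −0.012 over thymus at −0.22 and spleen at −0.27 to liver at −0.49 (F = 2.40, adjusted p = 0.549). With its neighbours taken off, that order became brain at 0.14, liver at −0.014, thymus at −0.056 and spleen at −0.52. Hey1 probe 20587 had brain highest and liver lowest as well (F = 0.993, adjusted p = 0.778), while with neighbours taken off spleen was its lowest at −0.33 and liver had −0.19, and Hey1 probe 24 had F = 0.185. Of 18031 probes, 0.211% passed the adjusted threshold and 11% the unadjusted one, none of these 4 probes among them.

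In 129SvJ/Iso the organs could be compared for 2 members. Hes1 ran from liver at 0.54 over brain at 0.057 to spleen at −0.25 (F = 2.79, adjusted p = 0.382). With the sign turned on Cy5 arrays, Hes1 in brain was −0.55, below spleen. Hey1 probe 20587 ran from spleen at 0.34 over brain at −0.77 to liver at −0.94 (F = 1.77, adjusted p = 0.526). With extreme values kept its liver mean lay above 0, and with the sign turned so did its brain mean, so this order is not settled. Of 9717 probes, 0% passed the adjusted threshold and 16.4% the unadjusted one. Neither member did.

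Probes of 1 gene did not always read alike. Over the mouse and organ samples they shared, Hey1 probes 24 and 20309 had a Pearson correlation of 0.45 (n = 22), 24 and 20587 of 0.28 (n = 23), and 20309 and 20587 of 0.12 (n = 24), where Spearman's rho was 0.45. Within C3H the 3 Pearson values were 0.34 (n = 18), 0.0039 (n = 18) and 0.59 (n = 20). The 2 Hey2 probes had 0.50 (n = 19), and 0.56 within C3H (n = 16). Samples of an organ share a pool, and organs share mice, so these are descriptions.

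Likeness was ranked by Pearson's r over all probes with a gene symbol, so the values named are high partly by selection. The probes most like Hey2 probe 20310 over the samples were Tbx3 (probe 20744, r = 0.89, n = 25), Slc6a19 (20729, r = 0.88, n = 24) and Pkig (20675, r = 0.88, n = 27). All 3 come from the end stretch of the numbering, and their Spearman's rho was 0.82, 0.9 and 0.7. The likest to Hey1 probe 20309 were Rffl (r = 0.89, n = 26), Cox8a (r = 0.89, n = 23) and Psma2 (r = 0.84, n = 23). Spearman's rho was lower for these, at 0.64, 0.46 and 0.39. For Hes1 the likest were Mapt (r = 0.81, n = 23), S100a5 (r = 0.76, n = 29) and Cenpm (r = 0.76, n = 24), and for Hes5 Creld2 (r = 0.80, n = 24), Rexo4 (r = 0.79, n = 20) and Ntmt1 (r = 0.77, n = 21). Their Spearman's rho was 0.54, 0.64 and 0.46 for Hes1, and 0.7, 0.44 and 0.62 for Hes5. Hey1 probe 24 was likest to Sephs2 and Cxcl14 (both r = 0.86), Hey1 probe 20587 to Cdh2 and Tead2 (both r = 0.74), and Hey2 probe 25 to Rnf14 (r = 0.85, n = 20). Spearman's rho was 0.65 for Sephs2 and Cxcl14, 0.69 for Cdh2, 0.67 for Tead2 and 0.46 for Rnf14.

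In the rest of the Notch pathway calls at the unadjusted threshold are read against all probes, of which 6.11% were higher and 7.66% lower in C3H liver, 2.82% and 5.31% in C3H thymus, and 3.73% and 5.03% in C3H brain. Among Notch receptors and ligands in C3H liver, 1 of 12 probes was higher and 2 were lower at the unadjusted threshold, with a median of 0.046 against 0.034 over all probes. Jag2, a ligand, averaged 0.46 ± 0.33, and Dlk1, a related membrane protein, −0.39 ± 0.33. Dlk1 was read on probe 20288, in a window with a median of −0.31. In C3H thymus 10 of 12 probes lay below 0, where 49.7% of all probes did, 1 was higher and 1 lower. Notch1, the main receptor of early thymocytes, averaged 0.46 ± 0.11 (n = 3).

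Among other Hes and Hey relatives and Notch targets, 2 of 18 probes were lower in C3H liver and 0 higher. They were Id2, a helix-loop-helix protein without a DNA-binding part, at −0.39 ± 0.19, and Hes2 at −0.39 ± 0.36, each below 0 in 5 of 5 mice. Hes2 is on probe 20, in the first window of the numbering, with a median of −0.20. Myc, a Notch target of T cells, averaged 1.03 ± 0.82 in C3H thymus (n = 4) and −0.48 ± 0.23 in C3H brain, on probe 20356 of the end stretch. Hes6, which counteracts Hes1, averaged −0.30 ± 0.30 in thymus.

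Of the RBPJ complex and its corepressors, 2 of 26 probes were higher and 2 lower in C3H liver. Tle4, a Groucho corepressor, averaged 0.68 ± 0.14 on probe 20749 in liver (n = 3), and −0.42 ± 0.41 on probe 20750 in brain, both of the end stretch. Ep300, a coactivator of the Notch complex, averaged −0.51 ± 0.40 in thymus. It was read on probe 20536 of the end stretch, in a window with a median of −0.17. Of the genes that process Notch, Adam17, a protease that cuts the receptor, averaged −0.63 ± 0.42 in thymus (n = 4), where 3 of 28 probes of this list were lower and 0 higher. In C3H liver 3 of the 28 were higher and 1 lower. Neurl1a and Dtx3, ubiquitin ligases of the pathway, averaged 0.25 ± 0.16 and 0.27 ± 0.19 there. Ncstn, a subunit of gamma-secretase, averaged −0.45 ± 0.38 on probe 20640 of the end stretch, in a window with a median of −0.38.

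Genes that Hes proteins repress, together with their E protein partners, had 7 of 17 listed genes on the array. In C3H liver 0 of 12 probes passed the unadjusted threshold, with a median of 0.12. In C3H brain 2 of 12 were lower, Neurod2, a neuronal transcription factor, at −0.23 ± 0.064 and Cdkn1b, a cell cycle inhibitor, at −0.22 ± 0.15. In C3H spleen 11 of 11 tested probes, of 7 genes, lay below 0, with a median of −0.15 and 0 past the unadjusted threshold. Probes of 1 gene are not separate evidence. Over all probes 50.8% lay below 0 in C3H spleen, and the direction is unsettled there. By limma, 0 probes of these 5 pathway lists passed the adjusted threshold in any group.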

How the data were processed

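The deposited values are log2 ratios of 86 2-colour cDNA arrays (20794 probes), made by the authors from Cy3 and Cy5 signals scanned on GenePix. Their normalization was not given in the sources used here. Array medians lay between −0.247 and 0.314. The numerator is not named. It was taken as heterozygous because 12 of 13 probes of genes listed by the study as lower in C3H liver, and 16 of 19 in thymus, lay below 0, which is no independent check. Spots with 1 constant extreme value per array (size above 14, with 19 to 618 spots per array) were set missing.

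Arrays of a mouse were averaged within each dye orientation, then over both, and a mouse lacking a usable value in an orientation it was hybridised in was left out for that probe. Where 3 mice or more had a value, limma (version 3.58.1, R 4.3.3; lmFit and eBayes, two-sided, Benjamini-Hochberg over all probes) tested the ratio against 0, between strains, and over organs by a moderated F. The scripts were tested on simulated data with a limit on false calls. Where each strain had its own simulated spread, the strain fit with a shared spread was exempt from that limit. Mouse numbers were checked for pairing of organs: deviations of the same mouse correlated with a median of 0.000489 in C3H and 0.0101 in 129SvJ/Iso. Dye orientations of the same mouse and organ hardly agreed either (median Spearman's rho from −0.16 to 0.16), so this cannot show that organs are unpaired. The main fit used no pairing because the study's methods name none, and a replicate block was an alternative.

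Members and gene lists were chosen with earlier results of these data known. Named are every member probe, up to 3 probes per list and group with the smallest p, and the 3 probes likest to each member over at least 20 shared samples. Alternatives covered extreme spots, array centring, single dyes, a random block for the mouse over single arrays, probes with values in all mice, robust eBayes, turned signs, replicate blocks and leaving out each mouse. A spread set by strain and centring on neighbouring probe numbers were chosen after seeing the data. Promoters come from RefSeq. The number of mice limits the precision.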

Additional observations from a re-analysis of the deposited data

Results flagged for a closer look

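Hes1 in C3H brain had 1 mouse far from the others. Mouse 1 was at 2.04, while the other 4 lay between 0.059 and 0.474, and 1 of its 2 arrays carried the high value (4.03 in Cy5, 0.039 in Cy3). This check was made on 30 sets of 4 or 5 mice, of which chance alone flags about 1 in 20.

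Hes5 in spleen was −0.58 on average in 2 C3H mice and 0.536 in 2 129SvJ/Iso mice, a difference of −1.12. These 4 mice lay on their strain's side of 0, but arrays with a value in 1 dye alone did not all do so, with 1.55 in C3H mouse 3 and −1.295 in 129SvJ/Iso mouse 2. The direction in C3H spleen is unsettled, that in 129SvJ/Iso spleen is hardly better settled, and the difference was not tested.

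Within C3H, Hes1 averaged 0.569 in brain (5 of 5 mice above 0) and −0.347 in spleen (3 of 3 below 0), a difference of 0.916. The brain mean was 0.203 without mouse 1, and the direction in C3H spleen is unsettled. This pair of organs was not tested by itself, and the moderated F over the 4 organs had an adjusted p of 0.557. Hey2 probe 20310 averaged −0.38 in liver (5 of 5 mice below 0) and 0.896 in spleen (2 of 2 above 0), a difference of −1.28 that was not tested. In spleen its 4 Cy3 arrays lay above 0 and its 2 Cy5 arrays below 0. Its liver mean became 0.0954 after its neighbours in probe number were taken off.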

How the results depend on the processing

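No member passed the adjusted threshold under any alternative run. With all arrays and the mouse as a random block, 27 probes passed in C3H thymus, 4 in C3H brain, 108 in 129SvJ/Iso liver and 3 in 129SvJ/Iso spleen, against 0 each on mouse means. The correlation fitted between arrays of a mouse was −0.0181, −0.0229, 0.0992 and 0.0102 in these groups. Such a fit counts technical arrays of a mouse almost as separate samples, so the added calls do not rest on more mice. The strain difference in liver had 38 probes, 13 with arrays centred on their median, 0 with extreme values kept, 0 with the spread set by strain, and 0 to 253 when 1 mouse was left out (253 without 129SvJ/Iso mouse 3, 0 without any 1 of the C3H mice). The strain difference in brain had 0 probes, and 0 to 16 with 1 mouse left out (16 without 129SvJ/Iso mouse 2, 6 without mouse 4). The organ difference in C3H had 38 probes, 3 with the mouse as replicate block, and 0 to 24 with 1 mouse left out (0 without mouse 4). The block changed no member's call. Of the member values recomputed as means or differences, 513 stayed within 1 SD with the same sign, 26 within 1 SD with the other sign, 23 moved by more with the same sign and 17 with the other sign, and all 34 F values stayed on their side of the threshold. With extreme values kept, Hey1 probe 20587 in 129SvJ/Iso liver was 0.501 in place of −0.935. Ratios alone cannot show how far a spot lay above background.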
